A study of Homo sapiens with 6 samples.

Results

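Fatty acid synthesis from acetyl-CoA was followed through 10 genes: the transcription factor gene SREBF1 and the enzyme genes ACLY, ACSS2, ACACA, FASN, SCD, ELOVL6, FADS1, FADS2 and ME1. They were chosen by name, as SREBP1 with genes of the pathway it is known for, and not by a rule on their values. Earlier results of these data were known when they were chosen. Each had 1 probe set whose platform annotation names that gene alone, so that 10 of 10 were measured, among 18417 genes tested; no member had another single-gene probe set. The arrays were 3 of parental MDA-MB231 cells, an established metastatic breast cancer line, called control, and 3 of 1 clone of the same line carrying a stable G9a knockdown. Control cells are labelled as untreated parental cells, with no mention of a control construct, and the knockdown arrays come from a single clone, so clone and knockdown cannot be told apart. Both groups were grown in DMEM/F12 with serum and harvested in log growth. The labels do not say whether replicates were grown separately. Every p-value therefore rests on the spread among these 6 arrays, which may be technical.

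SREBP1, encoded by SREBF1, is made as a membrane protein of the endoplasmic reticulum, escorted by SCAP to the Golgi when INSIG proteins let go, and cut there to release a transcription factor. Its relative SREBP2 is best known for the genes of cholesterol synthesis, and SREBP1 for those of fatty acid synthesis. In that pathway ACLY and ACSS2 supply acetyl-CoA, ME1 supplies NADPH, ACACA makes malonyl-CoA, FASN builds palmitate, ELOVL6 lengthens it, SCD introduces the first double bond, and FADS1 and FADS2 desaturate polyunsaturated fatty acids. Many breast cancer cells make fatty acids themselves rather than relying on uptake alone.

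In the G9a knockdown, SCD was the 1 gene of the 10 that passed the test, at 2.02-fold lower than control. Another 8 had negative differences, between -0.32 and -0.14 on the log2 scale, and ME1 was at 0.0021. The median over the 10 genes was -0.27, beside 0.03 over all 18417 genes. Calls of lower expression covered 1.78% of all genes tested (327 genes; limma, adjusted p of 0.05) and calls of higher expression 1.28% (235 genes), against 1 and 0 of the 10. With control replicate 3 left out the same gene passed, and the background of lower calls was 1.7%. Before adjustment, 8 of the 10 had a limma p under 0.05, as did 3568 of the 18417 genes.

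The array values separate more members than the adjusted test does. For 8 of the 10, every knockdown array lay below every control array, where 12.7% of all genes did so. Without control replicate 3 it was again 8 of 10, beside 19.6% of all genes. With all 6 arrays, ACSS2 and ME1 had overlapping groups. Without control replicate 3, ACSS2 was the 1 member that overlapped, and the knockdown arrays of ME1 all lay above the remaining control arrays, as they did for 23.6% of all genes.

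The label of the knockdown was checked first. EHMT2, the gene of G9a, read 10.21, 10.27 and 9.93 in control and 9.66, 9.59 and 9.51 in the knockdown, lower by 0.55 ± 0.10 (SE; limma, adjusted p = 0.0259), and passed in 1 of the 6 fits with an array left out, the one without control replicate 3. Without control replicate 3 the EHMT2 difference was -0.66 ± 0.07 (SE, limma, adjusted p = 0.0101). Array medians lay between 7.79 and 7.86. The MDA-MB231 markers VIM, CD44, FN1, ZEB1 and CAV1 all lay outside the lowest 33.3% of mean levels, and none of these 5 passed. Of 7 genes listed as low in this line, ESR1, PGR and CDH1 lay within the lowest 33.3%, and ERBB2, EPCAM, KRT8 and KRT18 did not. Averaged over these 7, levels ran from -0.11 to -0.03 around the 6-array mean in control and from 0.03 to 0.12 in the knockdown, without overlap. Taken singly, 6 of the 7 had overlapping groups. Their median difference was 0.10, and 0.02 without control replicate 3. Of the 7, CDH1, the epithelial cadherin, passed, with a rise of 0.45 ± 0.07 (SE; limma, adjusted p = 0.0177). It passed in 1 of the 6 fits with an array left out, the one without control replicate 3, and not with every probe set tested (adjusted p = 0.0699). Of 6 adipocyte markers, 4 lay in the lowest 33.3%, none passed, and their mean level per array ran from -0.09 to 0.07 around the 6-array mean in control and from -0.04 to 0.09 in the knockdown. The 4 fibroblast and endothelial markers, none of them in the lowest 33.3%, ran from -0.35 to 0.03 in control and from 0.16 to 0.21 in the knockdown. CDH5, an endothelial cadherin, rose by 0.71 (limma, adjusted p = 0.0210), passing in 2 of the 6 fits with an array left out. Without control replicate 3, PECAM1, named outside the rule, was called higher as well. In that fit all 4 had a limma p under 0.05 before adjustment, as did 4030 of the 18417 genes. Hepatocyte (4 genes) and leukocyte (3 genes) markers had no call. The part of these markers in the results was not tested.

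**Figure D1:**
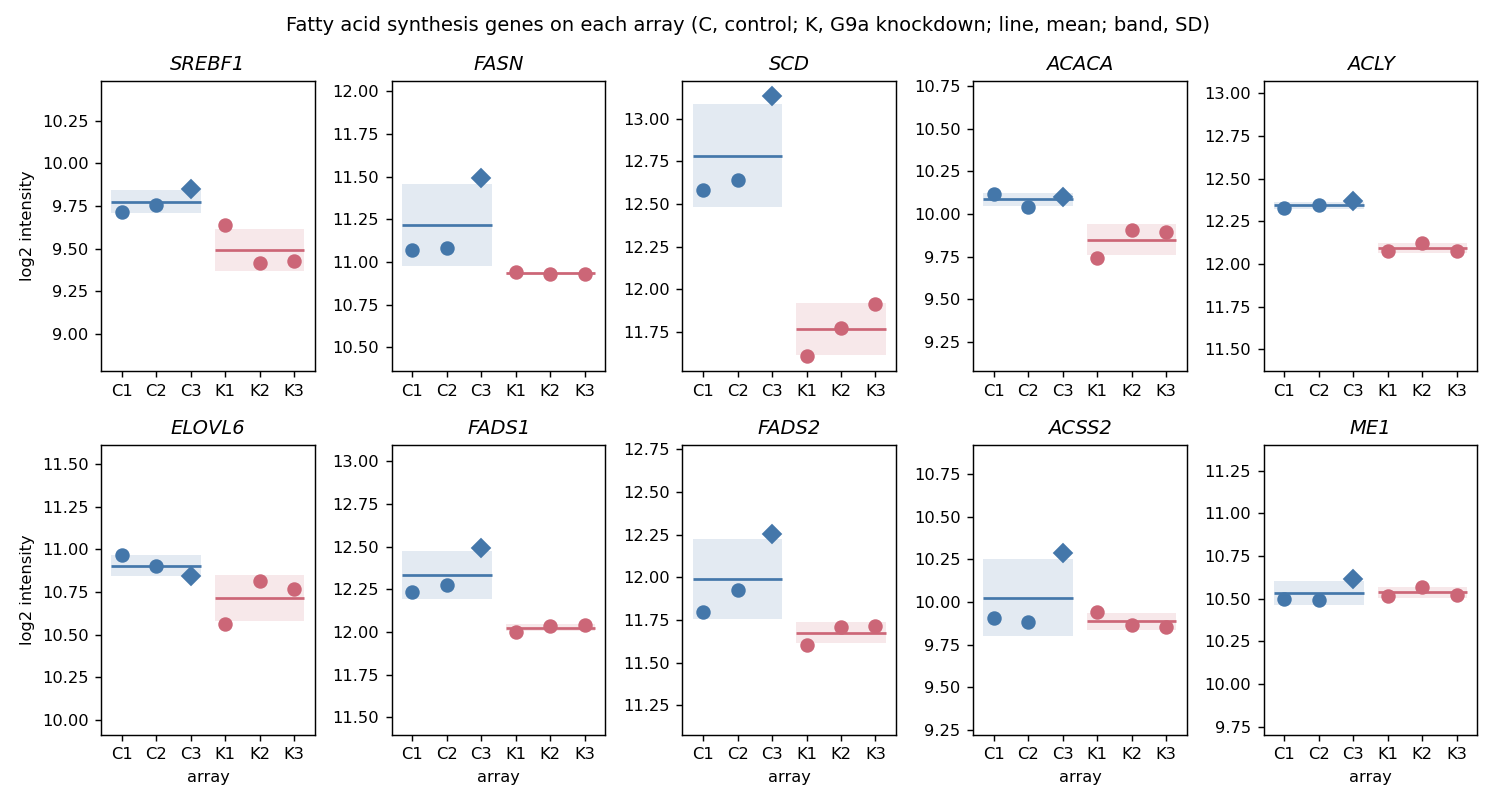
Log2 intensity of each of the 10 genes on every array, with control arrays (C1 to C3) in blue and G9a knockdown arrays (K1 to K3) in red; lines are group means, bands 1 SD (n = 3), and every panel spans the same number of log2 units. SCD shows the widest gap, control replicate 3 (diamond) stands apart from the other control arrays for FASN, SCD, FADS1, FADS2 and ACSS2, and the groups overlap for ACSS2 and ME1.

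SCD encodes stearoyl-CoA desaturase, which turns saturated into monounsaturated fatty acids. Its log2 intensity was 12.58, 12.64 and 13.13 on control replicates 1, 2 and 3, and 11.61, 11.78 and 11.92 on knockdown replicates 1, 2 and 3. The groups did not overlap, and control replicate 3 was the highest array. The means were 12.78 ± 0.30 and 11.77 ± 0.15 (SD, n = 3), a fall of 1.02 ± 0.15 on the log2 scale (SE; limma, adjusted p = 0.0146). From the most negative difference upward, SCD ranked 22 of the 18417 genes. Without control replicate 3 the fall was 0.84 ± 0.09 on the log2 scale, 1.79-fold (adjusted p = 0.0134). The call was lost without knockdown replicate 1 (-0.94, adjusted p = 0.0694) or knockdown replicate 3 (-1.09, adjusted p = 0.0635), and with every probe set of the array tested (adjusted p = 0.0665).

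SREBF1, the regulator itself, read 9.72, 9.76 and 9.85 in control and 9.64, 9.42 and 9.43 in the knockdown. The knockdown arrays were all below the control arrays, with knockdown replicate 1 closest to them. Its difference was -0.28 ± 0.08 (SE), which did not pass (limma, adjusted p = 0.0999), and -0.24 ± 0.08 without control replicate 3 (adjusted p = 0.158). The probe set gives 1 value for the gene, so the SREBP-1a and SREBP-1c transcripts were not separated, and an array measures RNA, not the cut and active protein.

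Of the genes that supply acetyl-CoA, ACLY, which cleaves citrate in the cytosol, had the smallest spread. It read 12.33, 12.34 and 12.37 in control and 12.08, 12.13 and 12.08 in the knockdown. All 3 control arrays lay together, as did all 3 knockdown arrays, and the gap between the groups exceeded the range within either. Its difference of -0.25 ± 0.06 (SE) missed the threshold narrowly (limma, adjusted p = 0.0551). Leaving out control replicate 3 gave -0.24 ± 0.05 (adjusted p = 0.0719). ACSS2, which makes acetyl-CoA from acetate, read 9.90, 9.88 and 10.29 in control and 9.94, 9.86 and 9.85 in the knockdown. The groups overlapped, and control replicate 3 alone was high. The difference of -0.14 ± 0.11 (SE; limma, adjusted p = 0.522) became -0.0086 ± 0.06 without that array (adjusted p = 0.945), with a 95% interval of -0.15 to 0.13.

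ACACA, the acetyl-CoA carboxylase whose step commits carbon to fatty acids, read 10.12, 10.04 and 10.10 in control and 9.74, 9.91 and 9.89 in the knockdown. All control arrays were higher than all knockdown arrays, and control replicate 3 was not the highest. The difference was -0.24 ± 0.07 (SE; limma, adjusted p = 0.102) and -0.23 ± 0.07 without control replicate 3 (adjusted p = 0.137), neither of which passed. FASN, the fatty acid synthase that assembles palmitate, read 11.07, 11.08 and 11.49 in control and 10.94, 10.93 and 10.93 in the knockdown. Its knockdown arrays were nearly identical, and control replicate 3 was far above the other control arrays. The difference of -0.28 ± 0.11 (SE; limma, adjusted p = 0.213) shrank to -0.14 ± 0.05 without that array (adjusted p = 0.183), by more than 1.5 times, and the groups did not overlap with or without it.

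ELOVL6, the elongase that lengthens palmitate, read 10.96, 10.90 and 10.84 in control and 10.56, 10.82 and 10.77 in the knockdown. The groups came close without overlapping, at 10.84 on control replicate 3 and 10.82 on knockdown replicate 2. Its difference was -0.19 ± 0.08 (SE; limma, adjusted p = 0.253), and -0.22 ± 0.09 without control replicate 3 (adjusted p = 0.212), the 1 member with a negative difference that lay further from 0 without that array. It was nearest to 0 without knockdown replicate 1, at -0.11.

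FADS1 and FADS2, the delta-5 and delta-6 desaturases of polyunsaturated fatty acids, are neighbours on chromosome 11. FADS1 read 12.23, 12.28 and 12.50 in control and 12.00, 12.03 and 12.04 in the knockdown, and FADS2 read 11.79, 11.92 and 12.25 in control and 11.60, 11.71 and 11.71 in the knockdown. For both genes the groups did not overlap and control replicate 3 was highest. FADS1 differed by -0.31 ± 0.08 (SE; limma, adjusted p = 0.0773) and by -0.23 ± 0.05 without control replicate 3 (adjusted p = 0.0805). FADS2 differed by -0.32 ± 0.11 (SE; limma, adjusted p = 0.175) and by -0.18 ± 0.07 without it (adjusted p = 0.190). Beside them in gene order, FADS3, a family member, was at -0.25 ± 0.13 (SE; limma, adjusted p = 0.337) and at -0.09 without control replicate 3, while FEN1, a DNA repair nuclease gene on the other side, was at 0.06 ± 0.08 and at -0.02 without it. FADS3 and FEN1 were named after their values were seen.

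ME1, the cytosolic malic enzyme that yields NADPH, read 10.50, 10.49 and 10.62 in control and 10.52, 10.57 and 10.52 in the knockdown. The knockdown arrays fell inside the control range. The difference was 0.0021 ± 0.06 (SE; limma, adjusted p = 0.991), with a 95% interval of -0.14 to 0.14, and 0.04 ± 0.05 without control replicate 3 (adjusted p = 0.671). Leaving out any of control replicates 1 and 2 and knockdown replicate 2 turned its sign to negative, as did centring each array on its median.

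**Figure D2:**
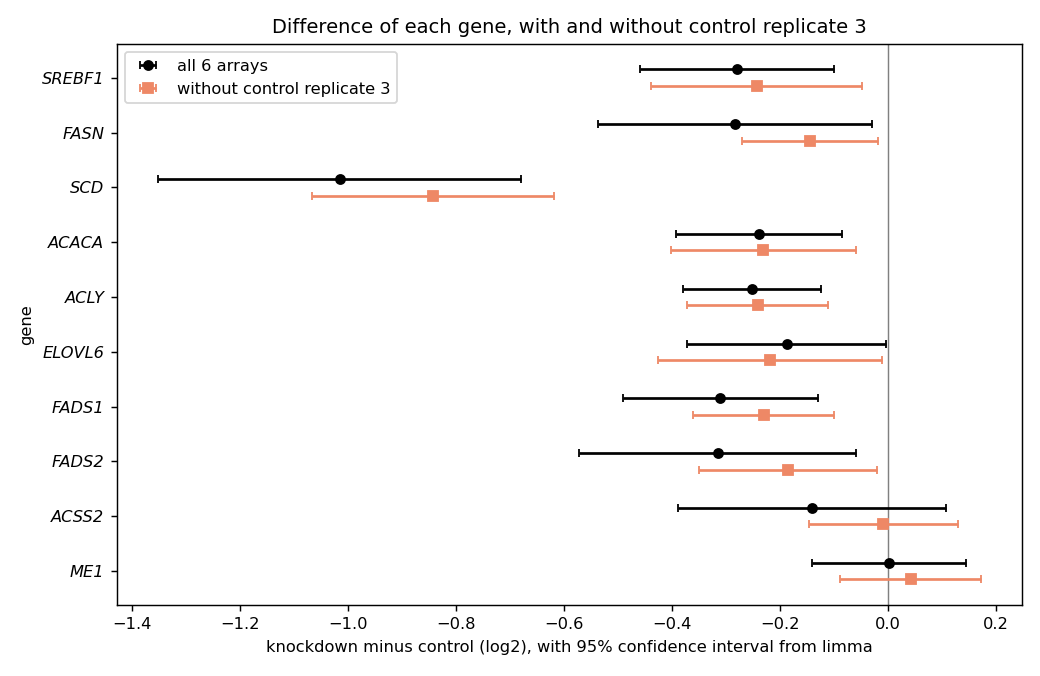
Difference between knockdown and control (log2, horizontal axis) for each gene, with 95% confidence intervals from limma, over all 6 arrays (black circles) and without control replicate 3 (orange squares). SCD lies at -1.02 and -0.84, ACLY and ACACA hardly move when the array is left out, FASN and FADS2 move toward 0, and the intervals of ACSS2 and ME1 include 0 in both fits.

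Control replicate 3 thus divided the members. Measured against the mean of the other control arrays, it was higher by 0.52 for SCD, 0.42 for FASN, 0.39 for FADS2, 0.39 for ACSS2 and 0.24 for FADS1. These 5 of 10 exceeded 0.2, as did 12.6% of all genes. The excess was 0.12 for ME1, 0.11 for SREBF1, 0.03 for ACLY and 0.02 for ACACA, and -0.09 for ELOVL6, beside a median of 0.0092 over all genes. EHMT2, not a member, was at -0.31 on the same measure. How this relates to the members was not tested. Averaged over the 10 genes, levels relative to the 6-array mean were 0.07 and 0.09 on control replicates 1 and 2 and 0.29 on control replicate 3. The knockdown arrays were at -0.19, -0.13 and -0.13, so that all 3 lay below all 3 control arrays. Without SCD, the other 9 gave 0.05, 0.06 and 0.23 in control and -0.13, -0.09 and -0.11 in the knockdown. The part of control replicate 3 in the differences is given by the fits without it: the median of the 10 was -0.22 there. In both fits 9 of 10 were negative, beside 40.4% of all genes with all 6 arrays and 41.6% without control replicate 3.

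To place each difference in its genomic surroundings, each member was set beside up to 20 tested genes on either side in the RefSeq order of GRCh38.p14. SCD, on chromosome 10, lay 0.96 below the median of its 40 neighbours (-0.05), with 1 of them, CNNM1 (-1.10), lower still. FASN, SREBF1 and FADS2 lay below all of their neighbours, whose medians were 0.01, -0.03 and 0.06. ACACA and ACLY each had 3 of 40 neighbours with a more negative difference, ACSS2 4 of 40 and FADS1 1 of 40, that 1 being FADS2. For ELOVL6, on chromosome 4, 12 of the 40 neighbours had a more negative difference, and it lay at -0.12 from their median of -0.07. Whether its own difference is separate from that of its neighbourhood was not tested. Among the 26 neighbours of ELOVL6 outside the lowest 33.3% of mean levels, the median was -0.15 and 23 were negative. ME1, on chromosome 6, lay at the median of its neighbours (-0.0049), with 22 of 40 below it.

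**Figure D3:**
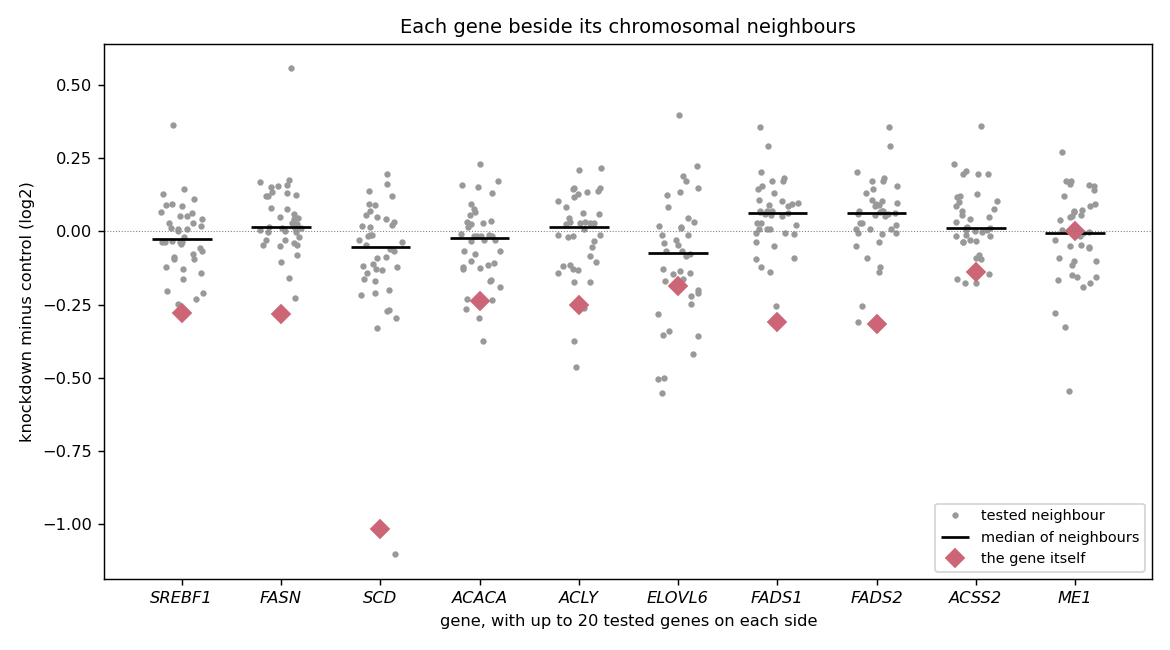
Difference between knockdown and control (log2, vertical axis) for each of the 10 genes (red diamonds) and for up to 20 tested genes on each side of it (grey points; black line, their median). FASN, SREBF1 and FADS2 sit below all of their neighbours, and SCD and FADS1 each have 1 neighbour below them. ELOVL6 sits within its neighbourhood, and ME1 sits on the median.

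Promoter windows were searched for the elements known to serve SREBPs, since 9 of the 10 genes had negative differences. RefSeq windows of GRCh38.p14, running from 250 bases before to 50 after a start, were found for 9 members, 14 windows in all; FASN was not matched. On both strands, the sterol regulatory element TCACNCCAC was in 0 of the 14 windows and in 1.13% of all 35116 windows, and the E-box CACGTG in 0 of 14 and in 7.26%. The NF-Y letters CCAAT were in 7 of 14 windows, from 5 genes, and in 34.6% of all windows, and the Sp1 letters GGGCGG in 12 of 14, from all 9 genes, and in 45% of all. Windows of 1 gene can overlap, and a match is a description of letters and not of a bound site. Only these spellings, and only starts with a window, were searched. The sterol regulatory element was in only 1.13% of all windows and the E-box in 7.26%. For neither does 0 of 14 show that these genes lack such sites. Shown are the 250 bases before the start of the regulator, of the gene that fell, of the gene with the smallest spread and of the gene with no difference, 5′ to 3′ on the gene's strand, with CCAAT and GGGCGG (or their complements ATTGG and CCGCCC) in capitals; no matches overlap in these stretches.
SREBF1, chr17:17836987-17837236, minus strand: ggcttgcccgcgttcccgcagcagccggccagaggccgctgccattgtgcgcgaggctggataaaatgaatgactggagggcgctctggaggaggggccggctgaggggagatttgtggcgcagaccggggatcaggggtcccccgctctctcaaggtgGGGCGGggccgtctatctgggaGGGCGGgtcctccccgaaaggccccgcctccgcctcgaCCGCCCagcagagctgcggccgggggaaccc
SCD, chr10:100346983-100347232, plus strand: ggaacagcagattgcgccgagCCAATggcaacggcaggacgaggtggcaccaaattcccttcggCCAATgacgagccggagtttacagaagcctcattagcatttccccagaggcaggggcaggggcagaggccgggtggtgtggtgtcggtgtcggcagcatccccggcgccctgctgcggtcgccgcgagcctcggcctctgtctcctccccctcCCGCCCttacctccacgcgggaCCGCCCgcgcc
ACLY, chr17:41919023-41919272, minus strand: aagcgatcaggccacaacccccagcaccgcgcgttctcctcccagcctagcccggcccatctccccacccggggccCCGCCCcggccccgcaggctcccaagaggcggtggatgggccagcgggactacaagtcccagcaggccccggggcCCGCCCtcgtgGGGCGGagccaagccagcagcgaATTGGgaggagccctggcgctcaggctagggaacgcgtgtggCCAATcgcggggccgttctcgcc
ME1, chr6:83431052-83431301, minus strand: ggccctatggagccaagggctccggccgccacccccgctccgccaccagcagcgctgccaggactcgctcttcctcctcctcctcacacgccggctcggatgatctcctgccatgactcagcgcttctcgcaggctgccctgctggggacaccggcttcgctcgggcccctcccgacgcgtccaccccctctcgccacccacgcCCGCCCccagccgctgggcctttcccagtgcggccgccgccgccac

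SCD and ACLY each held 2 CCAAT matches in the stretch shown, and SREBF1 and ME1 none. In SCD they begin 229 and 186 bases before the start, and in ACLY 65 and 23 bases before it. GGGCGG matches numbered 3 in SREBF1, 2 in SCD, 3 in ACLY and 1 in ME1.

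Genes that control SREBP processing or share its regulation gave 3 calls. Of 19 measured members of this list, 3 fell, beside 1.78% of all genes, none rose and 16 did not pass, with a median of -0.13 beside 0.03 over all genes. Every knockdown array lay below every control array for 11 of the 19, as for 2338 of the 18417 genes. Every knockdown array lay above for 3 of the 19, SCAP among them, as for 2628 of the 18417 genes. The 3 that passed were INSIG1, which retains SCAP in the endoplasmic reticulum (-1.19), CREBRF, a negative regulator of the stress factor CREB3 (-0.87), and LPIN1, a phosphatidate phosphatase (-0.36). CREBRF read 9.35, 9.36 and 9.78 in control and 8.57, 8.64 and 8.67 in the knockdown (limma, adjusted p = 0.0112), and the groups stood well apart. It passed in 4 of the 6 fits with 1 array left out, INSIG1 in 3 and LPIN1 in 1. The same 3 passed without control replicate 3, and no gene of the list passed without knockdown replicate 1 or without knockdown replicate 3, where 8 of the 19 had a limma p under 0.05 before adjustment in each fit, beside 2762 and 2815 of the 18417 genes. SREBF2, the gene of SREBP2, was at -0.38 ± 0.11 (SE; limma, adjusted p = 0.119), and SCAP at 0.24 ± 0.06 (adjusted p = 0.0715); neither passed, and both were named for their role outside the rule.

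Other genes of fatty acid synthesis were divided in direction. Of 35 measured, 1 rose and 2 fell, beside 1.28% and 1.78% of all genes, and 32 did not pass. The differences of 16 were negative, as were those of 40.4% of all genes, and the median of the list was 0.0082. HACD2, a dehydratase of fatty acid elongation, rose by 0.37 (limma, adjusted p = 0.0462). ACSL1, which activates long-chain fatty acids with CoA, fell by 0.48 on the log2 scale (adjusted p = 0.0157), and CBR4, a reductase of mitochondrial fatty acid synthesis, by 0.32 (adjusted p = 0.0404). ACSL1 read 10.65, 10.71 and 10.75 in control and 10.11, 10.26 and 10.31 in the knockdown, so the groups were clear of each other and control replicate 3 did not stand apart. Without control replicate 3, ACSL1 was the 1 gene of this list that passed. HACD2 and CBR4 passed in 0 of the 6 fits with 1 array left out, and ACSL1 in 3. SCD5, the other human stearoyl-CoA desaturase gene and named outside the rule, was at -0.06 ± 0.06 (SE; adjusted p = 0.654). The difference between SCD and SCD5 was not tested.

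NADPH supply, fatty acid oxidation and fatty acid handling gave few calls. None of 11 NADPH genes passed (median -0.06), and ALDH1L2 (-0.19) and IDH1 (-0.17) had the largest differences. Before adjustment, 1 of the 11 had a limma p under 0.05, as did 3568 of the 18417 genes. Of 25 oxidation genes, PDK4, a kinase that restrains pyruvate oxidation, was the 1 that passed, beside 1.28% of all genes called higher. It rose by 0.48 (limma, adjusted p = 0.0112). PDK4 read 8.67, 8.77 and 8.79 in control and 9.20, 9.28 and 9.21 in the knockdown, with narrow and separate groups, and it passed in 4 of the 6 fits with 1 array left out. CPT1A, the entry enzyme of mitochondrial oxidation, named outside the rule, was at 0.30 ± 0.10 (SE; adjusted p = 0.164) and at 0.18 without control replicate 3. None of 25 genes of uptake, binding and storage passed (median -0.0031). Before adjustment, 5 of them had a limma p under 0.05, beside 3568 of the 18417 genes. The largest there were VLDLR, a lipoprotein receptor (-0.48, adjusted p = 0.0800), which passed without control replicate 3 (-0.33, adjusted p = 0.0452), and LPL, lipoprotein lipase (-0.29, adjusted p = 0.0845).

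In the list of SREBP2 targets, made of sterol synthesis genes and STARD4, 5 of the 18 measured fell, beside 1.78% of all genes. None rose and 13 did not pass, and the median of the list was -0.44. The number that fell depended on the arrays used. Leaving out control replicate 1 gave 5, control replicate 2 gave 2 and control replicate 3 gave 8 (median -0.30), whereas leaving out knockdown replicate 1 gave 1, knockdown replicate 2 gave 3 and knockdown replicate 3 gave 0 (limma in each case). In that last fit 14 of the 18 had a p under 0.05 before adjustment, beside 2815 of the 18417 genes. Those that fell were HMGCS1 (-0.95), SC5D (-0.86), STARD4, a sterol carrier and not a synthesis enzyme (-0.84), IDI1 (-0.65) and CYP51A1 (-0.58). IDI1 is an isomerase of isoprenoid synthesis, and CYP51A1, a sterol demethylase, is named outside the rule. SC5D passed in 5 of the 6 fits with an array left out, STARD4 in 4, CYP51A1 in 3, and HMGCS1 and IDI1 in 2 each. That these genes were lower was known from earlier results of the same arrays. IDI1 read 11.27, 11.27 and 11.65 in control and 10.60, 10.81 and 10.83 in the knockdown. As for SCD, control replicate 3 was highest and the groups did not overlap. Averaged over the list, levels were 0.11 on control replicates 1 and 2, 0.45 on control replicate 3, and between -0.28 and -0.19 in the knockdown. The 10 fatty acid genes thus stood in the same order of groups, with smaller differences apart from SCD; the 2 lists share all 6 arrays, and the difference between them was not tested.

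**Figure D4:**
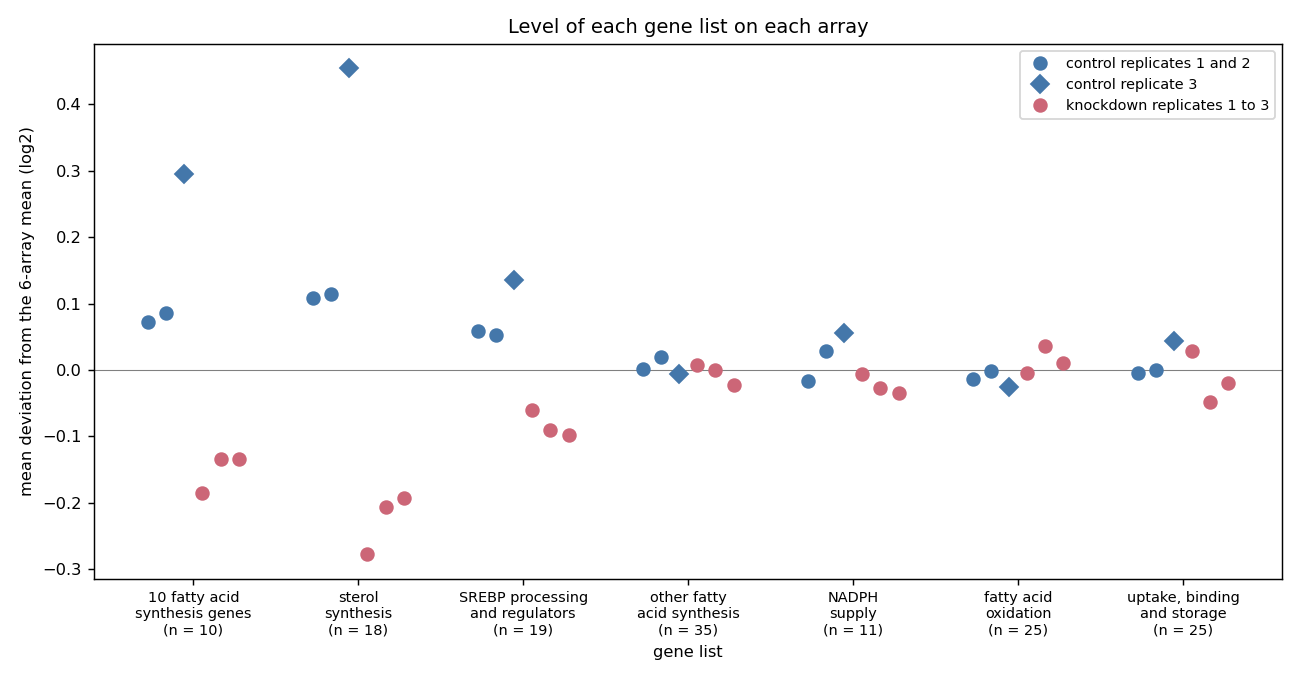
Mean deviation of each gene list from its 6-array mean (log2, vertical axis) on every array, for the 10 fatty acid synthesis genes and 6 lists around them, with the number of genes under each name. Control replicate 3 (diamond) is highest for the 10 genes (0.29), sterol synthesis (0.45), SREBP processing (0.14), NADPH supply (0.06) and uptake, binding and storage (0.04). The control and knockdown arrays mix for other fatty acid synthesis, NADPH supply, fatty acid oxidation, and uptake, binding and storage.

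The genes most like the mean profile of the 10 were sought among 1108 non-members with an SD of at least 0.2 over the 6 arrays. Those with the highest Pearson r were ARFGAP3, a Golgi traffic regulator (0.999), SCG5, a chaperone of secretory granules (0.998), BACH1, a haem-responsive repressor (0.997), SEC14L1 (0.997) and SBF2 (0.996). ARFGAP3 read 9.99, 9.97 and 10.29 in control and 9.58, 9.66 and 9.68 in the knockdown, high on control replicate 3 and separate between groups. These r values rest on 6 arrays in 2 groups, so they mainly restate the group difference and the high control replicate 3, and are given as a description. The differences between knockdown and control were -0.45 for ARFGAP3, -0.67 for SCG5, -0.70 for BACH1, -0.39 for SEC14L1 and -0.35 for SBF2. No test is given for these, because the genes were chosen for following a profile that separates the groups.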

How the data were processed

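RNA of 6 samples was measured on single-colour arrays, and groups came from the sample titles. The authors deposited log2 values per probe set, already summarised and scaled; the method is not given in the sources used here, and log2 was inferred from the range, 2.13 to 14.8. No background measure was used, so dim probe sets may hold no signal, and 6 arrays set the precision. Of 33297 probe sets, 19460 name 1 gene (1754 several, 12083 unnamed); the highest mean stands for each of 18417 genes, and symbols were updated through RefSeq GRCh38.p14 (19429 matched).

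Differences are knockdown minus control from limma 3.58.1 in R 4.3.3 (lmFit, eBayes), two-sided, with 4 residual degrees of freedom, Benjamini-Hochberg adjustment over all genes and a threshold of 0.05. Intervals are limma's 95% intervals per gene, not adjusted. The fit was tested on simulated data with independent normal noise, its spread drawn from limma's prior. Among 18417 genes, 100 were changed by 0.5 log2 and 100 by 1 log2. Of these, 67.0% and 97.0% were recovered, with 15 false calls. Other numbers of changed genes were not simulated. Nor was an array that stands apart, as control replicate 3 does for some genes, so these rates may not hold for the real arrays.

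The members and lists were chosen with earlier results of these data known. Genes were named as follows: the 10 members and EHMT2; up to 4 called genes per list, or the 2 with the largest difference; and 5 genes by likeness outside the lowest 33.3% of mean levels. Exceptions are marked.

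Alternatives were quantile normalization, median centring, a filter on the lowest 33.3%, a variance trend, array weights, means of probe sets, every probe set, a replicate block, and each array left out.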

Additional observations from a re-analysis of the deposited data

How the results depend on the processing

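Of 140 comparisons of a member's difference with an alternative (14 alternatives), 124 kept both direction and side of the threshold, 9 came to pass, 3 ceased to pass and 4 changed sign. The sign changes were all of ME1: -0.018 after median centring, and from -0.020 to 0.043 with 1 array left out. FEN1 was at -0.040 with array weights, and from -0.022 to 0.11 with 1 array left out. The number of members called lower was 1. It became 5 with array weights (SREBF1, SCD, ACACA, ACLY and FADS1), where 1610 of 18417 genes were called lower. Those weights ran from 0.27 for control replicate 3 to 4.83 for control replicate 2. With a variance trend 3 members were called lower, beside 649 of 18417 genes. After filtering out the lowest 33.3% of genes it was 3, beside 574 of 12278 genes (SCD, ACLY and FADS1 in both). After quantile normalization it was 2 (SCD and ACLY), beside 389 of 18417 genes. With every probe set tested it was 0, where 33 probe sets in all were lower and 27 higher by limma. In that fit 6 members had a p under 0.05 before adjustment, as did 13.9% of all probe sets. With 1 array left out, the number of members called lower ran from 0 to 1, being 0 without knockdown replicate 1 or 3. There 5 and 6 members had a limma p under 0.05 before adjustment, as did 2762 and 2815 of the 18417 genes.

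Genes called higher and lower numbered 235 and 327. They became 1718 and 1610 with array weights, 398 and 574 with that filter, 434 and 649 with a variance trend, and 101 and 116 with the replicate block. With 1 array left out, higher calls ran from 21 to 222 and lower calls from 23 to 313: 104 and 126 without control replicate 1, 66 and 80 without control replicate 2, 222 and 313 without control replicate 3, and 34 and 36, 73 and 125, and 21 and 23 without knockdown replicates 1, 2 and 3. The cause of these changes was not tested, except that fewer arrays or genes entered some fits.

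No protocol says that replicate numbers pair the samples, and no array was paired in the main fit. Deviations from the group means correlated at -0.246, 0.122 and 0.0877 for the same numbers, and at -0.337 to 0.352 for unlike numbers. With 3 arrays in a group, these values cannot decide whether the samples were paired. With the replicate block SCD still passed, and 1 member was called. Among 37 genes named that are not members, 95 of 511 comparisons ceased to pass and 22 came to pass. Changes smaller than 0.5 log2 were not simulated, so how often a test on 3 arrays a group recovers them was not tested.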
